A study of Mus musculus with 48 samples.

Results

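Voltage-gated sodium channels were followed across 6 striatal genotypes through 7 of their subunit genes, selected by symbol from the 48795 genes of the count table. They were the alpha subunit genes Scn1a, Scn3a, Scn8a and Scn9a and the beta subunit genes Scn2b, Scn3b and Scn4b. The table holds 14 genes with a sodium channel subunit symbol (Scn), and the others were not analysed here. All 7 passed the filter on low counts, which kept 19714 genes for testing.

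A sodium channel is built from a large alpha subunit, which forms the pore and senses voltage, and smaller beta subunits, which are membrane proteins with an immunoglobulin-like domain that change gating, carry the channel to the surface and take part in cell adhesion. Opening of the channels at the axon initial segment starts the action potential, and opening at the nodes of Ranvier passes it on. Scn8a encodes Nav1.6, a main channel of initial segments and nodes, and Scn1a encodes Nav1.1, a main channel of parvalbumin interneurons. Scn3a encodes Nav1.3, best known from the developing brain, and Scn9a encodes Nav1.7, best known from peripheral sensory neurons. Scn4b, whose protein gives the blocking particle of resurgent sodium current, is strongly expressed in spiny projection neurons, which are the GABAergic output cells of the striatum.

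The study measured striatal RNA by RNA-seq in 48 mice on a C57BL/6 background, 8 per genotype with 4 of each sex. Q140 mice model Huntington's disease by a knock-in of an expanded CAG repeat at the Htt locus, and are heterozygous per the labels. Msh3 encodes a DNA mismatch repair protein, and its loss was studied without and with the Q140 allele. The genotypes were WT, Msh3+/- (1 Msh3 allele lost by the label), Msh3-/- (both lost), Q140 (both Msh3 alleles kept), Q140 X Msh3+/- and Q140 X Msh3-/-. The labels name no drug or other agent. The labels state an age of 12 months, but their extraction text states 6 months at dissection, so the age is uncertain.

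Library totals ranged from 38.9 M to 60.9 M counts (M, 1e6), with a median of 47.3 M. Msh3 RNA sorted the libraries by label without overlap, but upwards: 26.4 to 32.49 CPM (TMM-scaled counts per M counts) in libraries with 2 intact alleles by the label, 68.4 to 81.5 CPM with 1 and 103.2 to 126.4 CPM with 0. A whole-gene count does not show whether the product works, so directions drawn for Msh3 genotypes rest on the labels. Markers of the labelled tissue were present in all 48 libraries, with median values of 697 FPKM (counts per kilobase of gene and M counts) for Ppp1r1b and 84.2 FPKM for Drd1. The lowest values of these genes were 426 FPKM and 54.0 FPKM. A set of 4 libraries, 1 of Q140 X Msh3+/-, 2 of Msh3-/- and 1 of Q140 X Msh3-/-, stood apart on the first component of residual variation. Another 4 libraries, 2 of WT and 2 of Q140, carried sample names with other prefixes than the rest. Results that changed without either set are given with that value.

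Scn2b and Scn4b are neighbours on chromosome 9 of GRCm38, both on the plus strand. Scn2b (ENSMUSG00000070304) spans positions 45117782 to 45130070, and Scn4b (ENSMUSG00000046480) spans 45138395 to 45154152, with 8325 bases between them. Their promoters are shown because both genes fell in Q140 mice, although by very different amounts. Each sequence runs from 250 bases before to 50 bases after the RefSeq start, on the plus strand of GRCm38.p6, at chr9:45138374-45138673 for Scn4b and chr9:45117626-45117925 for Scn2b. Capitals mark CG dinucleotides.
Scn4b: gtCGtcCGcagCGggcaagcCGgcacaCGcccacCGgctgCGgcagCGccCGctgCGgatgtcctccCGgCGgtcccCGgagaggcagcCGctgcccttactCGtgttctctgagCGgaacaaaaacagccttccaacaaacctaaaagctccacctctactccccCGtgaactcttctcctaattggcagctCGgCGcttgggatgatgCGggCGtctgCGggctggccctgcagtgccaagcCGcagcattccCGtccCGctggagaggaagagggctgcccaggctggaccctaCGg
Scn2b: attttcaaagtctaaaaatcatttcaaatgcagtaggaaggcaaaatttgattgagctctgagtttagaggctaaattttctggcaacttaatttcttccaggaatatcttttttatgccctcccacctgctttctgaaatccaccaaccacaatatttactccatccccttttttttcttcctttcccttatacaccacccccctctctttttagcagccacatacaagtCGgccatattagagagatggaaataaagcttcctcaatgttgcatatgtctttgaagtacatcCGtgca
The Scn4b window held 26 CG dinucleotides with a GC content of 66.3%, and 83.1% of the 32851 promoters in the RefSeq table held fewer. The Scn2b window held 2 with a GC content of 38.3%, and 14.1% of promoters held fewer. The medians over all promoters were 7 CG dinucleotides and 52.7%. RefSeq promoters were matched for 5 of the 7 genes. A search of both strands for TCAGCACC and GGACAGC (the left and right parts of the RE1 element bound by the repressor REST), TGACGTCA (the cyclic AMP response element), TATAAA (the TATA box) and GGGCGG (the GC box) found no match in any window of these 5 genes. The shares of all promoters with a match were 1.65%, 6.56%, 1.79%, 13.6% and 35.7%.

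The other members lie elsewhere. Scn3b (ENSMUSG00000049281) is on the same chromosome, at 40269217 to 40291618 on the plus strand. Scn3a (ENSMUSG00000057182, 65457118 to 65567627), Scn1a (ENSMUSG00000064329, 66270778 to 66440840) and Scn9a (ENSMUSG00000075316, 66480080 to 66634962) lie on the minus strand of chromosome 2, with 39240 bases between Scn1a and Scn9a. Scn8a (ENSMUSG00000023033) is at 100869858 to 101045938 on the plus strand of chromosome 15. Genes on the opposite strand overlap 5 members, and the counting's strand setting was not given in the sources used here. Of these, the overlapping genes that passed the filter had at most 118 counts per library (Gm13630, in Scn1a), 165 counts (Gm13629, in Scn9a) and 30 counts (Gm10684, in Scn2b). The Scn9a counts themselves ran from 435 to 1373, those of Scn1a from 6301 to 10416 and those of Scn2b from 16217 to 27801.

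Per length, beta subunit RNA was more abundant than alpha subunit RNA in WT striatum. Mean FPKM levels (SD, n = 8) were 420 ± 32.3 for Scn4b, 97.7 ± 3.52 for Scn2b and 32.7 ± 1.83 for Scn3b. The alpha subunits followed with 26.8 ± 0.965 for Scn8a, 16.4 ± 0.891 for Scn1a, 10.7 ± 0.845 for Scn3a and 0.99 ± 0.11 for Scn9a. The WT ranges of neighbours in this order did not overlap. In Q140 mice the order was kept but the top of it was compressed, with 173 ± 14.2 FPKM for Scn4b and 90.4 ± 4.42 FPKM for Scn2b.

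**Figure D1:**
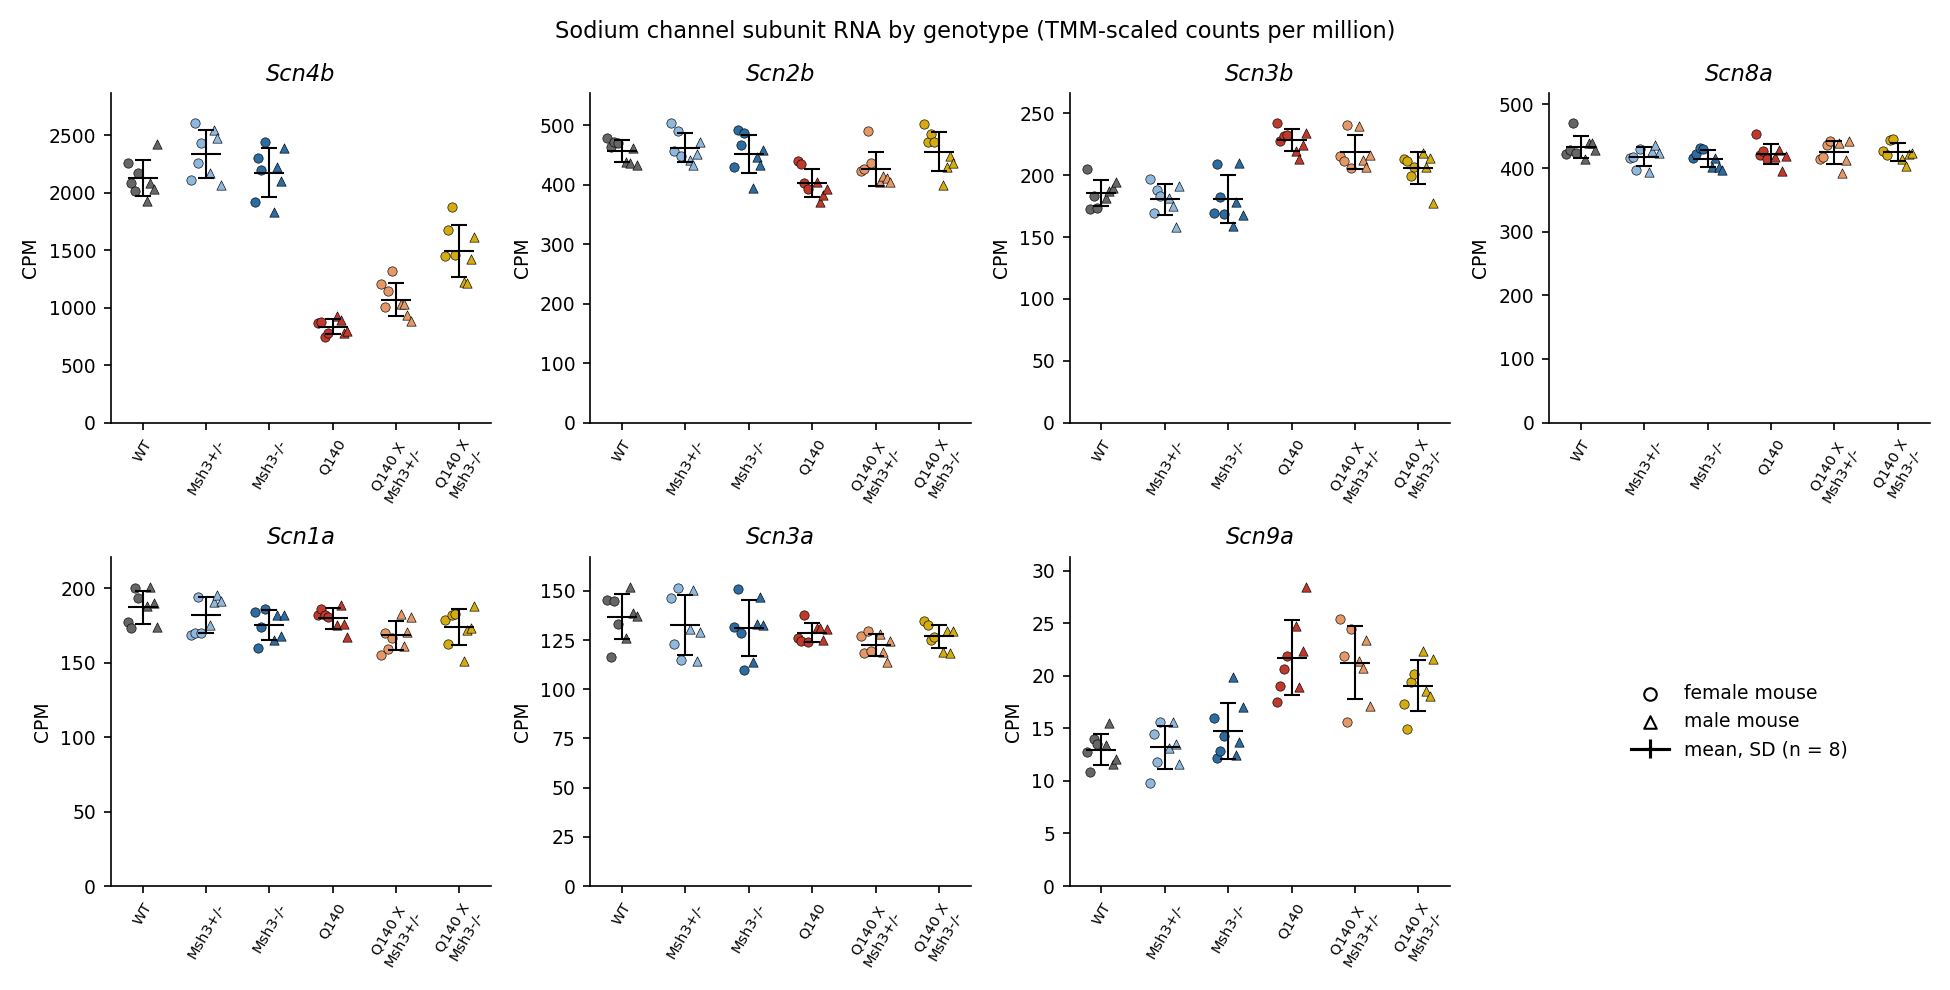
CPM, the TMM-scaled counts per M counts (vertical axes, starting at 0) of the 7 subunit genes in each of 48 mice, by genotype (horizontal axes). Circles are female and triangles male mice, and bars give the mean and SD of 8 mice; the 8 Q140 mice sit between 742.1 and 929.2 CPM for Scn4b, below all 8 WT mice.

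Q140 mice had less Scn4b and Scn2b RNA and more Scn9a and Scn3b RNA than WT mice, while Scn8a, Scn1a and Scn3a did not pass the test. Scn4b stood at 39.2% ± 3.14 of the WT mean (SD, n = 8), Scn2b at 88.2% ± 5.26, Scn3b at 123% ± 4.8 and Scn9a at 168% ± 27.5. Of the 7 genes 2 rose and 2 fell, and 33.0% of all tested genes were called in this comparison, 17.0% higher and 16.0% lower. The split over all genes depended on the scaling, at 3358 higher and 3148 lower with TMM against 5773 and 2064 with total counts, which moved the median log2 fold change of all genes by 0.07. The 4 member calls were the same with total counts.

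Scn4b, the beta4 subunit gene, ranged from 1927 to 2423 CPM in WT mice with a median of 2084 CPM. In Q140 mice it ranged from 742.1 to 929.2 CPM with a median of 830.9 CPM. The groups lay far apart, and all 8 Q140 mice were below the lowest WT mouse. The log2 fold change was -1.35 (SE 0.075, edgeR adjusted p = 7.54e-19), and over 12 alternative analyses it stayed between -1.38 and -1.28. In tissue RNA, fewer cells of a type and less RNA per cell cannot be told apart.

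Scn2b encodes the beta2 subunit, which is linked to the alpha subunit by a disulfide bond, as is beta4. Its level was 433.7 to 478.8 CPM in WT mice, median 462.1 CPM, and 370.7 to 440.4 CPM in Q140 mice, median 398.1 CPM. The ranges met at their ends, although all 8 Q140 mice lay below the WT mean. It fell by 0.18 (SE 0.033, edgeR adjusted p = 1.49e-05). With total counts the change was -0.11 (edgeR adjusted p = 0.000968).

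Scn3b encodes beta3, a subunit that binds without a disulfide bond. Scn3b had 172.5 to 204.8 CPM in WT mice, median 185.2 CPM, against 213.4 to 241.9 CPM in Q140 mice, median 229.8 CPM. Here too the groups did not overlap, with every Q140 mouse above every WT mouse. The rise was 0.30 (SE 0.0478, edgeR adjusted p = 1.86e-06). Of these 3 beta subunits 2 thus fell and 1 rose.

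Scn9a was the least abundant member, at 10.9 to 15.5 CPM in WT mice with a median of 13.1 CPM. Q140 mice had 17.5 to 28.5 CPM with a median of 21.3 CPM. No Q140 mouse was as low as a WT mouse, and the spread among Q140 mice was wider (SD 3.56 CPM against 1.48 CPM). The rise was 0.74 (SE 0.105, edgeR adjusted p = 1.99e-07), and without the sets of libraries that stood apart or carried other names it kept its call. With limma on log2(FPKM + 1), a scale that understates changes of low genes, the rise was 0.46. Scn4b, Scn3b and Scn9a were the members whose WT and Q140 ranges did not overlap, which held for 8.97% of all tested genes.

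The more abundant alpha subunits differed little. Scn8a had a median of 428 CPM in WT mice (range 414.6 to 470.1 CPM) and 419.8 CPM in Q140 mice (395.2 to 452.7 CPM). Its log2 fold change of -0.04 had a 95% confidence interval of -0.09 to 0.02. Scn1a had a WT median of 189 CPM and a Q140 median of 181.2 CPM, and its log2 fold change was -0.06 (-0.14 to 0.02). Scn3a had medians of 137.9 CPM and 128.1 CPM, with a log2 fold change of -0.09 (-0.20 to 0.02). The groups overlapped for all 3 genes, and with total counts the values of Scn8a and Scn1a changed sign without a call, to 0.03 and 0.01.

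Each sex taken alone gave the same 4 calls, with 22.4% of all genes called in females and 15.8% in males. The log2 fold change of Scn4b was -1.39 (SE 0.101) in female and -1.31 (SE 0.101) in male mice. Scn9a rose by 0.64 (SE 0.152) in females and 0.85 (SE 0.151) in males, and Scn3b by 0.35 (SE 0.0703) and 0.24 (SE 0.0703). No member passed a test of the difference between the sexes in edgeR, and none did so at an unadjusted p under 0.05. No gene at all was called there (0.00% of those tested). Over both sexes together, Scn2b had a higher mean in females than in males in 6 of 6 genotypes, for example 471 ± 6.46 CPM against 442.4 ± 12.6 CPM in WT mice (SD, n = 4). This difference between the sexes was not tested.

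Markers of the spiny projection neuron also differed in Q140 mice, in a comparison that called 16.0% of all tested genes lower and 17.0% higher. Of 10 such markers 9 fell and 1, Tac1, rose in Q140 mice, and their summed level was 2832 to 3263 FPKM in WT and 1601 to 1857 FPKM in Q140 mice. Summed pan-neuronal markers were 805.7 to 840.8 FPKM in WT and 798.3 to 883.1 FPKM in Q140 mice, with 1 of 6 higher (Map2) and 1 lower (Rbfox3). Endothelial markers fell in 4 of 4 cases, with summed levels of 20.9 to 32.9 FPKM and 17.1 to 21.7 FPKM. With each sex taken alone, 4 were called lower in females and 0 in males. For the difference between the sexes edgeR called 0 of the 4. Of other markers 3 of 10 fell for interneurons, 3 of 5 for astrocytes, 3 of 5 for microglia, 2 of 5 for mature oligodendrocytes and 1 of 3 for oligodendrocyte precursors. With total counts none of the astrocyte and precursor markers and 1 microglia marker fell. Cortical projection neuron markers summed to 1.36 to 4.40 FPKM in WT and 1.34 to 3.58 FPKM in Q140 mice. Of these 6 markers 1 was called higher and 0 lower. Emx1, 1 of the 6, was at 0 in 2 of the 48 libraries and reached at most 0.453 FPKM. Choroid plexus and ependymal markers, with 1 of 3 higher (Kl) and 1 lower (Foxj1), summed to 6.99 to 34.3 FPKM and 12.0 to 19.5 FPKM. The part of these cell types in the subunit values was not tested.

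Within 200 kb of the Scn2b and Scn4b pair the table holds 17 other genes, of which 9 were tested. Of these 1 rose and 3 fell in Q140 mice, in a comparison that called 33.0% of all tested genes. Ube4a, a ubiquitin ligase gene, rose by 0.15 (SE 0.0281, edgeR adjusted p = 3.84e-05). BC049352 fell by 0.91, the interleukin-10 receptor gene Il10ra by 0.47 and Mpzl3 by 0.24. BC049352, Il10ra and Mpzl3 had WT means of 3.52, 7.64 and 7.58 CPM, low beside those of Scn2b and Scn4b.

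Without the Q140 allele, Msh3 genotype went with no call among the 7 genes. In Msh3+/- minus WT no member passed in edgeR (0.0101% of all genes did), none had an unadjusted p under 0.05, and DESeq2 called 0. In Msh3-/- minus WT no member passed either (0.0457% of all genes did), DESeq2 called 0, and 2 had an unadjusted p under 0.05. These were Scn1a (-0.09, 95% confidence interval -0.18 to -0.01) and Scn8a (-0.06, -0.12 to -0.01). Scn4b ranged from 2063 to 2603 CPM in Msh3+/- mice, median 2347 CPM, and from 1830.0 to 2442 CPM in Msh3-/- mice, median 2209 CPM. Both ranges overlapped that of WT, and the log2 differences were 0.13 (-0.01 to 0.28) and 0.03 (-0.11 to 0.18).

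In Q140 mice lacking both Msh3 alleles by the label, Scn4b and Scn2b were higher and Scn3b was lower than in Q140 mice. Scn4b stood at 70.2% ± 10.6 of the WT mean (SD, n = 8), against 39.2% in Q140. Of the 7 members 2 were higher and 1 lower, and 16.3% of all genes were called, 8.75% higher and 7.57% lower. With total counts the calls over all genes split into 1283 higher and 2869 lower, against 1725 and 1492 with TMM, and the 3 member calls were the same. This comparison shares its 8 Q140 libraries with Q140 minus WT, so the directions of both are not independent.

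Scn4b in Q140 X Msh3-/- mice ranged from 1212 to 1876 CPM with a median of 1453 CPM. Every one of these mice was above all Q140 mice and below all WT mice. The ranges of Q140 X Msh3-/- and Q140 mice did not overlap for 2.87% of all tested genes. The log2 difference from Q140 was 0.83 (SE 0.0742, edgeR adjusted p = 1.26e-11), and it lay between 0.79 and 0.89 over the 12 alternatives. Scn4b was the member with the widest relative spread in this genotype (coefficient of variation 15.2%, against 8.00% in Q140 mice).

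Scn2b ranged from 399.6 to 501.4 CPM in Q140 X Msh3-/- mice with a median of 459.8 CPM, which overlapped both Q140 and WT. It was 0.18 above Q140 (SE 0.033, edgeR adjusted p = 7.34e-05), with 7 of 8 mice above the Q140 mean. Scn3b ranged from 177.7 to 218.3 CPM with a median of 209.1 CPM, and all 8 mice lay below the Q140 mean. Its difference of -0.15 (SE 0.0477, edgeR adjusted p = 0.0261) lost its call without the 4 libraries of other name prefixes (-0.13, edgeR adjusted p = 0.0887). It also did so without the 3 libraries (1 each of WT, Q140 X Msh3+/- and Q140 X Msh3-/-) in which a member's value lay far from the rest of its group (-0.12, edgeR adjusted p = 0.0914), a choice made after seeing the data. Scn9a ranged from 14.9 to 22.4 CPM with a median of 19.0 CPM, and its difference from Q140 of -0.19 (95% confidence interval -0.39 to 0.01) did not pass. Scn8a, Scn1a and Scn3a differed from Q140 by 0.01, -0.05 and -0.02, and none passed.

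With 1 Msh3 allele lost, Scn4b was the member that differed from Q140. Scn4b ranged from 885.3 to 1319 CPM in Q140 X Msh3+/- mice, median 1034 CPM, which overlapped Q140 at its lower end. All 8 mice lay above the Q140 mean, and the log2 difference was 0.36 (SE 0.0738, edgeR adjusted p = 0.00553). Of 7 members 1 was called, and 1.32% of all genes were called, 0.842% as higher. Scn2b had the next smallest p (404.1 to 490.1 CPM, median 419 CPM). Its difference of 0.08 (SE 0.033, edgeR adjusted p = 0.218) did not pass. Scn1a differed by -0.10 (SE 0.0413, edgeR adjusted p = 0.268) and did not pass either. Scn4b, Scn2b and Scn1a were the 3 members with an unadjusted p under 0.05 in edgeR. Scn9a, at 15.6 to 25.4 CPM with a median of 21.6 CPM, differed by -0.02 (95% confidence interval -0.22 to 0.18).

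Compared directly, the crosses differed in Scn4b. Q140 X Msh3-/- exceeded Q140 X Msh3+/- by 0.48 (SE 0.0738, edgeR adjusted p = 3.64e-05), although their ranges overlapped. Of 7 members 1 was called, and 3.23% of all genes were called, 2.29% as higher. Scn2b differed by 0.09 (SE 0.033, edgeR adjusted p = 0.113). It passed without the 4 libraries that stood apart (0.10, edgeR adjusted p = 0.0447) and without the 3 with an isolated value (0.12, edgeR adjusted p = 0.0466), both chosen after seeing the data. In the order of Scn4b medians, Q140 was lowest, then Q140 X Msh3+/-, Q140 X Msh3-/-, WT, Msh3-/- and Msh3+/-. Every neighbouring pair up to WT differed by the test, while Msh3-/- and Msh3+/- did not differ from WT beyond their spread and were not tested against each other.

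Set against WT, Q140 X Msh3-/- mice still had less Scn4b and more Scn9a. Scn4b differed from WT by -0.51 (SE 0.0738, edgeR adjusted p = 3.52e-06), with no overlap of the ranges, as for 1.11% of all genes. Scn9a was 0.56 above WT (SE 0.105, edgeR adjusted p = 0.000337). Of 7 members 1 was higher and 1 lower, and 6.28% of all genes were called, 2.91% higher and 3.37% lower. Scn3b was 0.15 above WT (SE 0.0478) with an edgeR adjusted p of 0.0504, and 6 of the 12 alternatives called it, among them DESeq2 (adjusted p = 0.04). Scn2b differed from WT by less than 0.01 on the log2 scale, with a 95% confidence interval of -0.07 to 0.06.

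In Q140 X Msh3+/- mice 2 members were higher and 4 lower than in WT, against 22.1% of all genes called, 10.8% higher and 11.3% lower. Scn4b differed by -0.99 (SE 0.0744), Scn9a by 0.72 (SE 0.105) and Scn3b by 0.23 (SE 0.0478), and the ranges of these 3 did not overlap with WT (4.95% of all genes). Scn1a (-0.15, SE 0.0413, edgeR adjusted p = 0.00443), Scn3a (-0.16, SE 0.0557, edgeR adjusted p = 0.0323) and Scn2b (-0.10, SE 0.033, edgeR adjusted p = 0.0225) were also lower. These 3 calls were lost with total counts, where the values were -0.08, -0.08 and -0.03, and with limma on FPKM. Scn3a was also not called without the 4 libraries of other name prefixes (-0.15, edgeR adjusted p = 0.088), without the 3 with an isolated value (-0.16, edgeR adjusted p = 0.0596) or without the filter on low counts (edgeR adjusted p = 0.0667).

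The effect of Q140 was also taken within each Msh3 background, where no libraries are shared between the effects. For Scn4b it was -1.35 with both Msh3 alleles, -1.13 (SE 0.0746) in Msh3+/- and -0.55 (SE 0.0739) in Msh3-/- mice. Scn9a rose by 0.74, 0.69 (SE 0.105) and 0.36 (SE 0.105, edgeR adjusted p = 0.0224). The rises of Scn3b were 0.30, 0.28 (SE 0.0478) and 0.19 (SE 0.0479). Scn2b fell by 0.18 and 0.12 (SE 0.033) in the first 2 and had a value of 0.01 (SE 0.033) in Msh3-/- mice. In Msh3+/- mice 2 members rose and 3 fell, with 21.5% of all genes called (10.8% in each direction). The ranges of Scn4b and Scn3b did not overlap there, as for 4.60% of all genes. In Msh3-/- mice 2 members rose and 1 fell, with 7.86% of all genes called (4.01% higher and 3.84% lower).

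**Figure D2:**
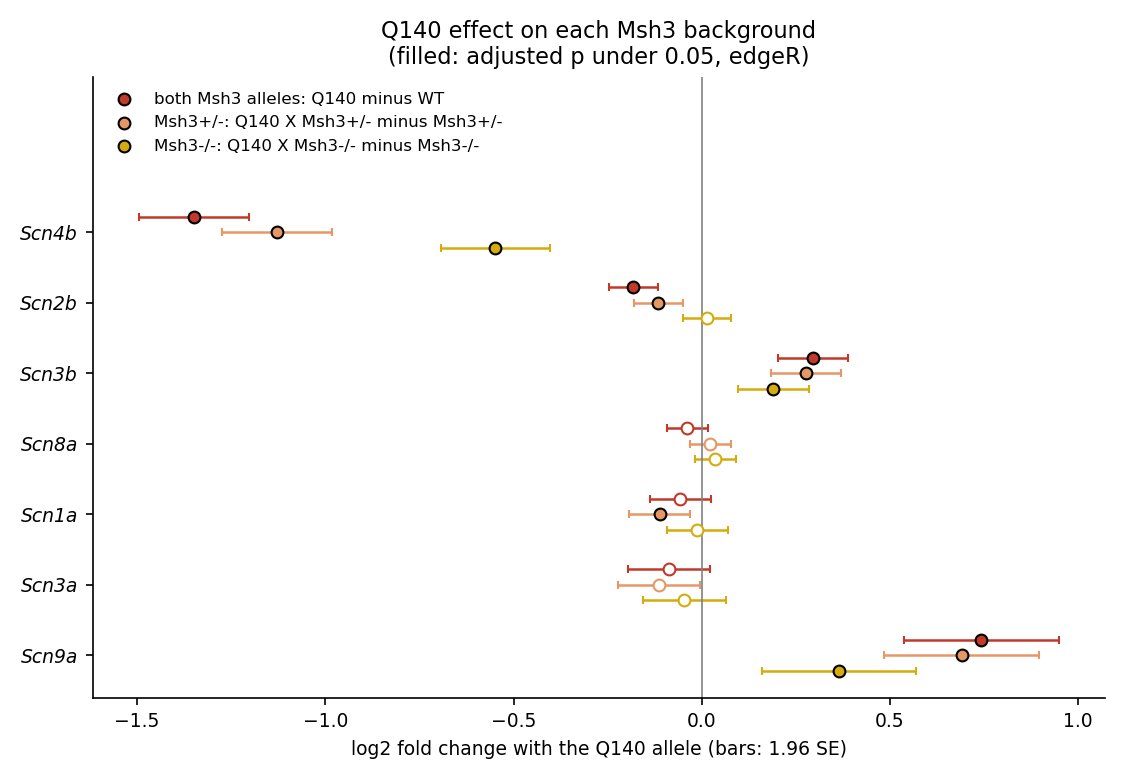
Log2 fold change with the Q140 allele (horizontal axis) for each subunit gene (vertical axis) on 3 Msh3 backgrounds, with approximate 95% confidence intervals. Filled points passed an edgeR adjusted p of 0.05. The Scn4b points move from -1.35 to -1.13 and -0.55 as Msh3 alleles are lost, while Scn8a and Scn3a have unfilled points on each background.

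Some of these calls rested on the libraries or the scaling. Scn1a was the third gene lower in Q140 X Msh3+/- minus Msh3+/- (-0.11, SE 0.0414, edgeR adjusted p = 0.0449). It was not called with total counts or with limma on FPKM (-0.05 in each). The call was also lost without the 4 libraries that stood apart (-0.10, edgeR adjusted p = 0.068). It was lost too without the 3 with an isolated value (-0.11, edgeR adjusted p = 0.0678). The Scn2b call in Q140 X Msh3+/- minus Msh3+/- was lost with total counts and with limma on FPKM (-0.05 in each). Under these settings Scn8a was called higher (0.09 with total counts, 0.08 with limma). Scn3b in Q140 X Msh3-/- minus Msh3-/- was not called without the 4 libraries that stood apart (0.13, edgeR adjusted p = 0.115) or with only the compared groups in the fit (0.19, edgeR adjusted p = 0.0566).

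The differences between the Q140 effects were tested as interactions. With Msh3-/-, 2 members were called, both of them beta subunits, while 6.15% of all genes were called (4.09% as higher). The Scn4b effect was less negative by 0.80 (SE 0.104, edgeR adjusted p = 6.85e-07) and the Scn2b effect by 0.20 (SE 0.0467, edgeR adjusted p = 0.00484). The Scn9a interaction of -0.38 (95% confidence interval -0.67 to -0.09) had an adjusted p of 0.13 in edgeR, and that of Scn3b was -0.10 (-0.24 to 0.03). With Msh3+/- no member passed in edgeR or DESeq2, and 0.0152% of all genes were called. Scn4b (0.22, 95% confidence interval 0.02 to 0.43) was the 1 member with an unadjusted p under 0.05.

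Spiny projection neuron markers also moved in the crosses. In Q140 X Msh3-/- minus Q140, 9 of 10 were higher and 0 lower, against 8.75% of all genes higher and 7.57% lower. Their summed level in Q140 X Msh3-/- mice was 2141 to 2682 FPKM. In Q140 X Msh3+/- minus Q140, 6 were higher, against 0.842% of all genes, with summed levels of 1855 to 2186 FPKM. Both comparisons share their Q140 libraries with Q140 minus WT, so these directions are not independent of the falls there. Against WT, 8 of 10 were lower in Q140 X Msh3-/- mice, as were 3.37% of all genes. Of the pan-neuronal markers 1 of 6, Rbfox3, was higher than in Q140, but with total counts another was lower and none higher. Cortical markers in Q140 X Msh3-/- mice summed to 1.29 to 16.7 FPKM, and 1 of 6, Neurod6, was called higher than in Q140, while 7 of the 12 alternatives called no cortical marker. The part of these markers in the subunit values was not tested.

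The proteins that hold sodium channels in place, regulate them or carry sodium by other routes were represented by 44 genes in 5 lists. In Q140 minus WT 10 rose and 14 fell, in a comparison that called 33.0% of all tested genes, and their median log2 fold change of -0.0034 was close to that of all genes tested, -0.0041. With total counts 19 rose and 11 fell. In Q140 X Msh3-/- minus Q140 10 were higher and 6 lower (5 and 13 with total counts), against 16.3% of all genes called. In Q140 X Msh3-/- minus WT 2 were higher and 3 lower (6 and 1 with total counts), against 6.28% of all genes. In Q140 X Msh3+/- minus Q140 edgeR called 0 of the 44.

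The sodium pump expels sodium from the cell, and exchangers use its gradient to move other ions. Of 10 pump and exchanger genes 7 fell and 2 rose in Q140 mice, against 16.0% of all genes lower and 17.0% higher. Their median log2 fold change was -0.16. With total counts 5 fell and 2 rose. Slc8a2, a sodium-calcium exchanger, had 408.8 to 475 CPM in WT and 311.9 to 346 CPM in Q140 mice. It fell by 0.40 (SE 0.0351, edgeR adjusted p = 9.16e-14), and the groups did not overlap, as for 8.97% of all genes. Slc8a3, another exchanger of this family, fell by 0.28 (SE 0.0408). Atp1b1, a beta subunit gene of the pump, rose by 0.23 (SE 0.0306). Relative to Q140, 5 of the 10 were higher and 2 lower in Q140 X Msh3-/- mice, against 8.75% and 7.57% of all genes. With total counts 3 were higher and 2 lower. Among those called with TMM were Slc8a2 at 0.29 (SE 0.0351) and Atp1b1 at -0.17 (SE 0.0306). Slc8a2 also had an interaction with Msh3-/- of 0.31 (SE 0.0495, edgeR adjusted p = 1.51e-05). Slc8a2 and Atp1b1 were named for their small p in Q140 minus WT. Their later values use the same Q140 libraries, so these are not independent of that choice. Against WT edgeR called 0 of the 10 in Q140 X Msh3-/- mice, with 6.28% of all genes called, and with total counts 1 was higher.

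Of 12 scaffold genes of the initial segment and the node 2 rose and 3 fell in Q140 mice, but 6 rose and 2 fell with total counts. Of all genes 17.0% rose and 16.0% fell with TMM. Trim46, which organises microtubules of the proximal axon, went from 119.5 to 137 CPM in WT to 97.0 to 118.5 CPM in Q140 mice, a fall of 0.26 (SE 0.0382). Cntnap1, the paranodal Caspr protein, fell by 0.25 (SE 0.0437), and its partner Cntn1 rose by 0.14 (SE 0.0291). Ank3, which encodes the ankyrin-G anchor of sodium channels, fell by 0.11 (SE 0.0274), a call lost with total counts and with limma on FPKM (-0.04 in each). In Q140 X Msh3-/- minus Q140, where 16.3% of all genes were called, 1 scaffold gene was called, Trim46 at 0.13 (SE 0.0382). It was not called with limma on FPKM or with total counts, and under the latter 3 other scaffold genes were lower.

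Among 10 genes for proteins that bind or regulate the channel 2 rose and 2 fell in Q140 mice, against 4 and 2 with total counts. The TMM shares of all genes were 17.0% higher and 16.0% lower. Nedd4l, a ubiquitin ligase that removes channels from the membrane, went from 335 to 437.3 CPM in WT to 268.2 to 302.8 CPM in Q140 mice, a fall of 0.35 (SE 0.0437). Its relative Nedd4 rose by 0.07 (SE 0.0242, edgeR adjusted p = 0.0191), a call lost without the 4 libraries of other name prefixes (0.06, adjusted p = 0.0919), without the low-count filter and with the compared groups alone. Fgf14, an intracellular factor that binds the channel tail, fell by 0.22 (SE 0.0431). Gpd1l rose by 0.31 (SE 0.0331), from 71.2 to 84.8 CPM in WT to 90.1 to 100.8 CPM in Q140 mice. Its ranges did not overlap, as for 8.97% of all genes. Gpd1l and Nedd4l kept their calls against WT in Q140 X Msh3-/- mice, at 0.18 (SE 0.0332) and -0.20 (SE 0.0437). In that genotype Gpd1l was 0.13 below Q140 (-0.13, SE 0.033) and Nedd4l 0.15 above it (SE 0.0437). The Nedd4l call was lost with limma on FPKM at either pseudocount (0.11, highest adjusted p 0.0554).

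The leak channel complex passes a steady sodium current at rest. Of its 4 genes 2 rose and 0 fell in Q140 mice, against 17.0% of all genes higher and 16.0% lower. With total counts 3 of the 4 rose. Fam155a, an auxiliary subunit, went from 30.9 to 34.2 CPM in WT to 35.5 to 45.2 CPM in Q140 mice (0.33, SE 0.0477), and Nalcn, the pore subunit, rose by 0.12 (SE 0.0315). Fam155a was lower by a log2 difference of -0.22 (SE 0.0475) in Q140 X Msh3-/- than in Q140 mice. In the last list, RNA-binding and transcription regulators of neuronal channel genes, 2 of 8 rose and 2 fell, against 4 and 2 with total counts. The same TMM shares of all genes, 17.0% and 16.0%, apply here. The splicing factors Rbfox1 and Rbfox3 fell by 0.28 (SE 0.041) and 0.18 (SE 0.0403), and Nova1 rose by 0.23 (SE 0.041). Rest, the repressor that binds RE1 elements, was at 6.10 to 8.34 CPM in WT and 7.83 to 8.99 CPM in Q140 mice. Its rise of 0.17 (SE 0.068, edgeR adjusted p = 0.0469) was not called without the low-count filter, with replicate number in place of sex or with plate column as a term.

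**Figure D3:**
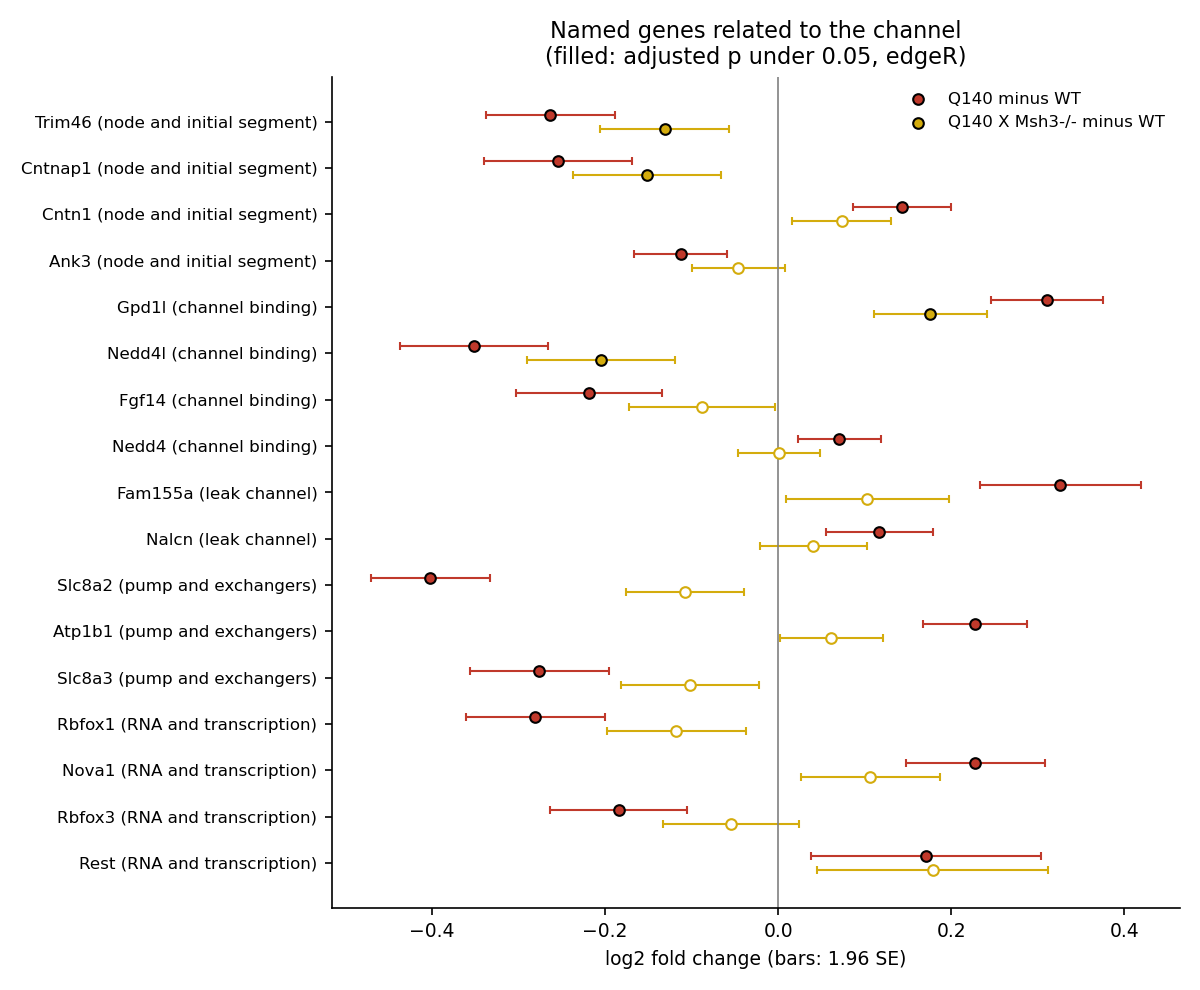
Log2 fold changes from WT (horizontal axis) of the named genes related to the channel (vertical axis, with their list), in Q140 mice and in Q140 X Msh3-/- mice, with approximate 95% confidence intervals. Filled points passed an edgeR adjusted p of 0.05. Of the genes shown, Trim46, Cntnap1, Gpd1l and Nedd4l are filled in both comparisons, which share the WT libraries. With total counts or with limma on FPKM, Trim46 and Cntnap1 did not pass in Q140 X Msh3-/- minus WT. Trim46 also did not pass there with plate column as a term (edgeR adjusted p = 0.063). Nor did it without the libraries with an isolated value (edgeR adjusted p = 0.0598).

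For Scn4b and Scn9a, the members called in Q140 with a log2 fold change of at least 0.3 in size (Scn3b, at 0.295 before rounding, fell short), the genes with the most similar genotype means were sought among the 13833 genes whose log2 CPM averaged 1 or more. Likeness was the root mean square difference of 6 genotype means, each gene centred on its own mean. Scn4b was followed most closely by Il17rc (0.048), a subunit of the interleukin-17 receptor. Gm44529 (0.056), Penk (0.062), Ptpn7 (0.068) and 2410018L13Rik (0.075) came next. Penk, the enkephalin precursor and a marker of indirect-pathway spiny projection neurons, was the abundant one among them, with a WT mean of 1023 FPKM, and the others were at 0.71 to 7.33 FPKM. Scn9a was followed by Islr2 (0.042), Fat1 (0.050), Ildr2 (0.055), N4bp2 (0.057) and Gm26945 (0.059), with WT means of 1.27 to 5.79 FPKM. All values come from the same 48 libraries and are descriptions.

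**Figure D4:**
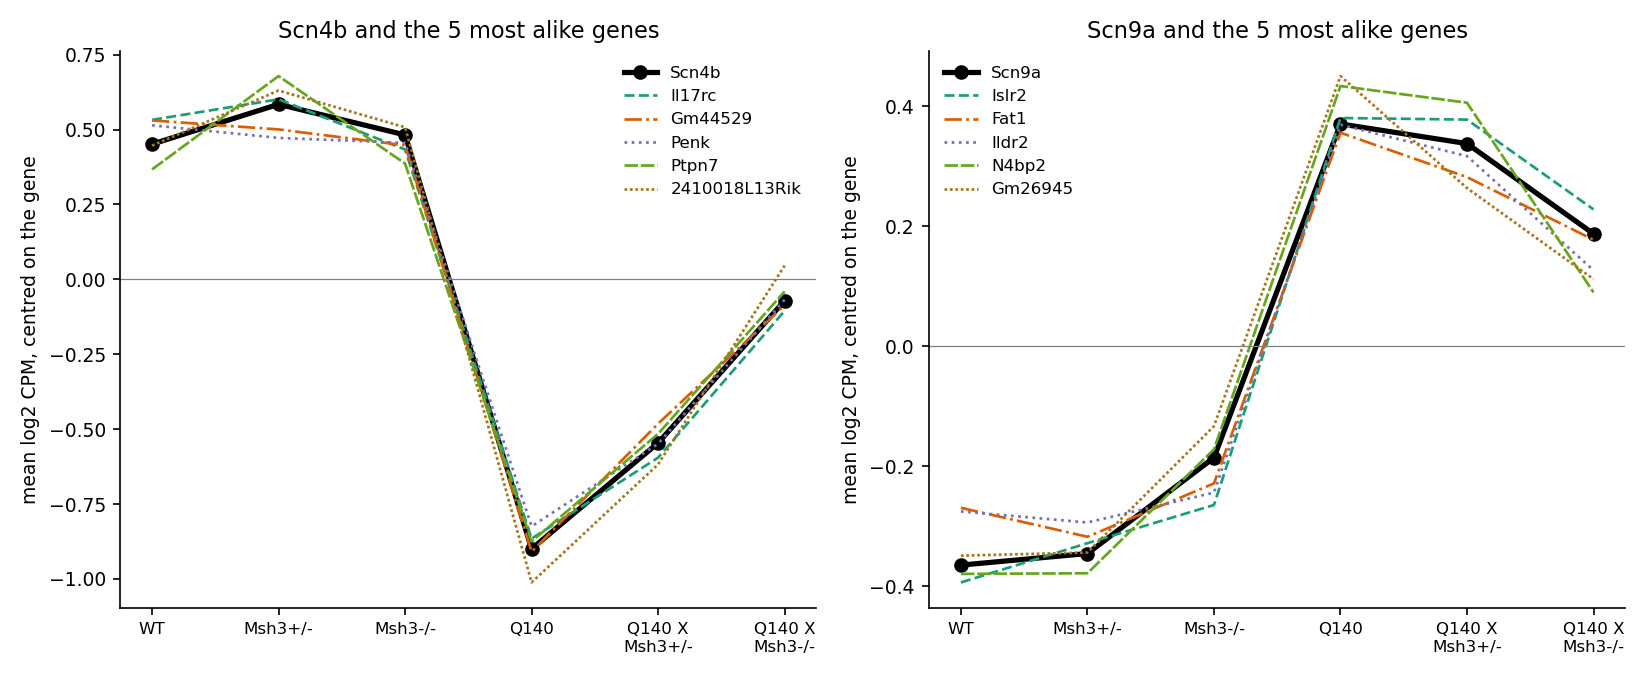
Genotype means of log2 CPM, each gene centred on its own mean over the 6 genotypes (vertical axis), for Scn4b and Scn9a (black) and the 5 genes most like each (coloured). Lines only join the 6 genotypes (horizontal axis). Scn4b and its 5 genes are highest in the 3 genotypes without Q140 and lowest in Q140, and Scn9a and its 5 genes show the reverse order.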

How the data were processed

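Striatal RNA libraries of 48 mice were made with a stranded TruSeq protocol, per the labels' protocols. The authors deposited whole-number counts per gene and FPKM values of 48795 genes. Alignment and counting used GRCm38 (mm10), HTSeq 0.12.3, SAMtools 1.10 and STAR 2.7.5c, per the submitters' processing notes. Neither annotation release nor strand setting was given in the sources used here. FPKM as deposited by the authors were counts times a constant of the gene over the library total (largest relative deviation 8.5e-08 over 16336 genes). GENCODE M21 gave coordinates.

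Genotype, sex and replicate number came from the sample titles. Counts were tested with edgeR 4.0.16 in R 4.3.3: filterByExpr (minimum count 10; 29081 genes left out), TMM scaling, robust quasi-likelihood F-tests over all 48 libraries with genotype and sex as terms (41 residual degrees of freedom), and Benjamini-Hochberg adjustment over all 19714 tested genes with a threshold of 0.05. Sex differences came from a fit with a term per genotype and sex. Fold changes are log2 values with an approximate standard error (SE). It was taken as the size of the change over the square root of the edgeR F statistic. The 95% confidence intervals were built on it and are also approximate. The scripts were tested on simulated data. Alternatives used DESeq2 1.42.0, limma 3.58.1 on log2(FPKM + 0.1) and log2(FPKM + 1), other scalings and other sets of libraries. Same-numbered mice of different genotypes did not deviate together at the median (correlation -0.00207 over 120 pairs, -0.00542 over 360 other pairs of the same sex). The highest correlations were 0.547 and 0.366, so the medians cannot exclude that some mice are paired. Replicate number was not used as a pairing in the main fit, and other groupings of the mice were not checked in this way. Precision is set by the spread between mice, and depth is lowest for Scn9a (435 to 1373 counts per library).

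The members, the lists of related genes and the markers were chosen with earlier results of these data known. Named related genes were up to 4 per list past the threshold in Q140 minus WT with the smallest p, and always Ank3, Fgf14 and Nalcn. Comparisons with Q140 and the interactions reuse those Q140 libraries, so a reversal of these genes there is not independent of the choice. Single-gene values of some other genes this rule names are not reported here, and they count in their list. The 5 most similar genes were taken for members called with a log2 fold change of at least 0.3 in size.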

Additional observations from a re-analysis of the deposited data

Results flagged for a closer look

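Of 42 sets of 8 mice (7 genes in 6 genotypes), 3 held a mouse whose value stood far from the nearest other for the range of its group, and chance gives about 1 such set in 20. Scn8a was at 470.1 CPM in 1 female WT mouse, against 440.1 CPM in the next highest. Scn2b was at 490.1 CPM in 1 female Q140 X Msh3+/- mouse, with the next at 436.9 CPM. Scn3b was at 177.7 CPM in 1 male Q140 X Msh3-/- mouse, with the next lowest at 199.3 CPM. Without these 3 libraries Scn3b was no longer called in Q140 X Msh3-/- minus Q140 (-0.12, edgeR adjusted p = 0.0914) and Scn2b was called between the crosses (0.12, edgeR adjusted p = 0.0466).

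The Q140 effect on Scn4b and Scn2b differed between Msh3 backgrounds in the test of the difference itself. In Msh3-/- mice the effect was less negative than with both alleles by 0.80 on the log2 scale for Scn4b (edgeR adjusted p = 6.85e-07) and by 0.20 for Scn2b (edgeR adjusted p = 0.00484). Both were called under all 12 alternatives, with ranges of 0.74 to 0.85 and 0.14 to 0.21.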

How the results depend on the processing

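The fold changes of single members gave 1022 values under 12 alternatives. For the sex difference of the Q140 effect there were 2 alternatives (total counts and no low-count filter). Of the 1022 values 987 kept their side of the threshold, 24 lost a call, 11 gained one and 0 reversed with a call. Among the 987, 43 changed sign without a call on either side. Of 146 counts of called members 141 stayed within 1.5 times. In Q140 X Msh3+/- minus WT 3 rather than 6 members were called with total counts and with limma on FPKM at either pseudocount. Total counts do not correct for shifts in composition, and these FPKM values are scaled to them. In Q140 X Msh3-/- minus Q140 X Msh3+/- 2 rather than 1 were called without the libraries that stood apart and without those with an isolated value, both chosen after seeing the data; the cause was not tested. The comparisons within 1 sex were run under the main settings alone. With the replicate block in place of sex, the numbers of called members were the same in every comparison between genotypes (4 in Q140 minus WT, 3 in Q140 X Msh3-/- minus Q140), and it moved the calls over all genes in Q140 minus WT from 6506 to 6526.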
